A study of Mus musculus with 8 samples.

Results

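The 10 genes described here encode the enzymes and core partners that write and remove 2 repressive chromatin marks: Dnmt1, Dnmt3a, Dnmt3b and Uhrf1 for writing DNA methylation, Tet1, Tet2 and Tet3 for removing it, and Ezh2, Suz12 and Eed for Polycomb repressive complex 2 (PRC2). They were chosen by name from the 23366 gene symbols in the count tables, and all 10 passed the filter on low counts that left 20427 genes for testing. Their RNA was measured by sequencing in 8 libraries of sorted intestinal epithelial cells from male mouse littermates aged 6 weeks. The Sox4cKO animals carried 2 floxed alleles of the transcription factor gene Sox4 and villin-Cre, a transgene in which the villin promoter drives Cre recombinase in gut epithelium from mid-gestation onward. The control animals carried the same floxed alleles (Sox4fl/fl) without Cre, so no group had unmodified Sox4. Epithelial cells positive for CD326 (EpCAM) were sorted from each animal into a CD44-positive gate enriched for crypt cells (CD44plus) and a CD44-negative gate enriched for villus cells (CD44minus), with 50000 cells per library. The 4 groups were Sox4cKO CD44plus, control CD44plus, Sox4cKO CD44minus and control CD44minus, each with 2 libraries from 2 animals. By the names of the deposited tables, as read here, each animal gave 1 library in either gate.

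DNA methylation is carried through cell division by DNMT1, which methylates the new strand of replicated DNA, and by UHRF1, which recognises sites methylated on the old strand only and brings DNMT1 to them. DNMT3A and DNMT3B place new methylation, and the TET enzymes oxidise methylcytosine so that it can be removed. In PRC2, EZH2 methylates a lysine on the tail of histone H3, and SUZ12 and EED are the subunits without which EZH2 is not active. In the intestine, stem and progenitor cells divide in the crypts and their progeny stop dividing as they move onto the villi.

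Gene counts per library ranged from 6007554 to 13238050 in CD44plus and from 886194 to 6963345 in CD44minus. Reads on olfactory and vomeronasal receptor genes, which as a class were assumed to be little used in gut epithelium, served as a measure of unspecific reads. It put 0.33 to 1.74% of gene counts at background in CD44plus and 0.901 to 20% in CD44minus. The measure can overstate it, since it predicted more reads on Sox4 than were counted in both Sox4cKO CD44minus libraries. Sox4cKO CD44minus replicate 2 stood apart from the other 3 CD44minus libraries, with the most counts, the least background and a summed level of 20 villus enterocyte markers of 78210 CPM (counts scaled to the total gene counts of the library and adjusted by TMM factors), against 15070 to 36460 CPM in the others. Sox4 gave 123 and 271 reads in Sox4cKO CD44plus, against 1438 and 658 in control CD44plus, a log2 fold change of -2.51 (SE 0.61) that itself did not pass over all genes (adjusted p = 1 by edgeR), and at most 21 reads in any CD44minus library. Crypt markers summed to 5302 to 6835 CPM in CD44plus and 290.7 to 489.6 CPM in CD44minus, and enterocyte markers to 3189 to 4022 CPM in CD44plus and 15070 to 78210 CPM in CD44minus, in the direction of the labelled gates.

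The genes that maintain DNA methylation were 7.77- to 12.3-fold higher in CD44plus than in CD44minus cells of the same animal, the PRC2 core genes 1.74- to 6.04-fold, and the TET genes showed no common direction. Uhrf1 (GRCm38 chr17:56303321-56323486, plus strand) stood at 149 and 148 CPM in Sox4cKO CD44plus libraries 1 and 2, against 14.9 and 15.8 CPM in Sox4cKO CD44minus. In control animals it stood at 135 and 110.1 CPM in CD44plus, against 11.5 and 10.6 CPM in CD44minus. Every CD44plus library thus lay above every CD44minus library, and Uhrf1 had the smallest relative spread between replicates of the 10 genes in Sox4cKO CD44plus. Uhrf1 rose in CD44plus by a log2 fold change of 3.27 (SE 0.65, adjusted p = 0.0163 by edgeR's quasi-likelihood test) in Sox4cKO and of 3.48 (SE 0.67, adjusted p = 0.0174) in control. It was the only one of the 10 genes past the threshold of an adjusted p of 0.05 in either genotype, against 1.66% of all genes higher in CD44plus in Sox4cKO and 2.01% in control. The call in Sox4cKO was lost without Sox4cKO CD44plus replicate 2 (adjusted p = 0.199), and that in control was lost without any of the 4 control libraries (adjusted p = 0.136 to 0.37), while the log2 fold change stayed between 3.23 and 3.62 over the 8 libraries left out in turn. In these sorted bulk samples, fewer cells that express a gene and less of its RNA per cell cannot be told apart.

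Dnmt1 (chr9:20907209-20959888, minus strand) was the most abundant of the 4 methylation writers in CD44plus. It stood at 442 and 643 CPM in Sox4cKO CD44plus, against 38.1 and 78.5 CPM in Sox4cKO CD44minus, and at 488 and 492 CPM in control CD44plus, against 39.7 and 63.3 CPM in control CD44minus. The gates did not overlap, and the within-animal folds were 11.6 and 8.2 in Sox4cKO and 12.3 and 7.77 in control. Its log2 fold changes of 3.21 (SE 0.89) in Sox4cKO and 3.25 (SE 0.89) in control were slightly smaller than those of Uhrf1, with larger SEs. They did not pass in this fit (adjusted p = 0.0616 and 0.0613 by edgeR). With the animal as a block, since both gates were read as coming from the same animals, Dnmt1 passed in Sox4cKO (adjusted p = 0.0356 by edgeR) and in control (adjusted p = 0.0239). In all, 2 of the 10 genes passed in Sox4cKO and 3 in control. The block also called more of all 20427 genes, 807 higher and 905 lower in Sox4cKO and 1506 higher and 2153 lower in control. Dnmt1 also passed in Sox4cKO and control with upper quartile scaling (adjusted p = 0.00693 and 0.0103 by edgeR) and by DESeq2 (5.37e-08 and 2.32e-07). It passed likewise with background subtracted (0.00188 and 0.0021 by edgeR) and with the ribosomal RNA gene Rn45s left out (0.0173 and 0.0239). With only the 4 libraries compared, none of the 10 genes passed in Sox4cKO. The counts of all genes under these settings are given below.

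The de novo enzymes differed less between the gates. Dnmt3a (chr12:3806007-3914443, plus strand) stood at 140 and 258 CPM in Sox4cKO CD44plus, against 69.8 and 186 CPM in Sox4cKO CD44minus, where the gates overlapped. In control animals it stood at 189 and 184 CPM in CD44plus, against 53.2 and 82.6 CPM in CD44minus, without overlap. The log2 fold changes of 0.64 (SE 0.75) in Sox4cKO and 1.46 (SE 0.76) in control did not pass (adjusted p = 0.623 and 0.243 by edgeR). Dnmt3b (chr2:153649450-153687730, plus strand) was read at low levels throughout, 18.5 and 23.4 CPM in Sox4cKO CD44plus, against 12.9 and 10.6 CPM in Sox4cKO CD44minus. Control CD44plus had 23.4 and 16.8 CPM of Dnmt3b, against 19.5 and 9.43 CPM in control CD44minus, and these overlapped. Only 24 to 39 reads lay on Dnmt3b in the CD44minus libraries, of which 9.14 to 51.4% were at the predicted background, and neither fold change passed (0.84, SE 0.61, in Sox4cKO and 0.49, SE 0.61, in control).

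The 3 PRC2 core genes lay higher in every CD44plus than in every CD44minus library. Ezh2 (chr6:47530139-47595341, minus strand), which encodes the catalytic subunit, stood at 101 and 124 CPM in Sox4cKO CD44plus, against 22.3 and 65.7 CPM in Sox4cKO CD44minus. In control animals Ezh2 stood at 109 and 136 CPM in CD44plus, against 19.5 and 28.3 CPM in CD44minus. Its log2 fold change was 1.35 (SE 0.66, adjusted p = 0.298 by edgeR) in Sox4cKO and 2.34 (SE 0.69, adjusted p = 0.0787) in control, where it passed with the animal as a block (adjusted p = 0.0224). Sox4cKO CD44minus replicate 2 was the highest of the CD44minus libraries for Ezh2, Suz12 and Eed alike.

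Suz12 (chr11:79993106-80034123, plus strand) stood at 152 and 186 CPM in Sox4cKO CD44plus, against 28.2 and 107 CPM in Sox4cKO CD44minus, and at 167 and 141 CPM in control CD44plus, against 27.6 and 53.5 CPM in control CD44minus. Eed (chr7:89954654-89980983, minus strand) stood at 64.4 and 77.6 CPM in Sox4cKO CD44plus, against 12.4 and 42.2 CPM in Sox4cKO CD44minus, and at 60.9 and 63.4 CPM in control CD44plus, against 13.5 and 26.3 CPM in control CD44minus. Neither passed in either genotype, with log2 fold changes of 1.31 (SE 0.74) and 1.92 (SE 0.76) for Suz12 and 1.36 (SE 0.63) and 1.62 (SE 0.64) for Eed in Sox4cKO and control (adjusted p = 0.16 to 0.35 by edgeR). With predicted background subtracted, Ezh2, Suz12 and Eed passed in Sox4cKO (adjusted p = 0.0112, 0.0273 and 0.0245 by edgeR). That setting called 1434 of 18399 genes higher there. None of these PRC2 genes passed in Sox4cKO by DESeq2, with upper quartile scaling or with Rn45s left out. A small part of the exons of Ezh2, Suz12 and Eed overlaps a non-coding gene on the opposite strand, and whether the counting used strand is not given in the sources used here.

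Of the demethylating enzymes, Tet3 (chr6:83362373-83459084, minus strand) was the most abundant. It stood at 300.1 and 414 CPM in Sox4cKO CD44plus, against 168 and 666 CPM in Sox4cKO CD44minus, and at 332 and 342 CPM in control CD44plus, against 144 and 258 CPM in control CD44minus. The highest of the 8 libraries was Sox4cKO CD44minus replicate 2, so that the gates overlapped in Sox4cKO and not in control. Tet2 (chr3:133463679-133545139, minus strand) stood at 90.5 and 181 CPM in Sox4cKO CD44plus, against 105 and 239.5 CPM in Sox4cKO CD44minus, and at 119 and 136 CPM in control CD44plus, against 90.9 and 122 CPM in control CD44minus. Tet2 overlapped between the gates in both genotypes. The log2 fold changes of Tet2 and Tet3 ran from -0.34 to 0.75 over the genotypes, with SEs of 0.73 to 0.88, and none passed.

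Tet1 (chr10:62804570-62908996, minus strand) was the only 1 of the 10 genes with a lower fitted level in CD44plus in both genotypes, and its values rest on few reads. It stood at 13.5 and 18.1 CPM in Sox4cKO CD44plus, against 50 and 8.99 CPM in Sox4cKO CD44minus, and at 18.9 and 16.6 CPM in control CD44plus, against 46.5 and 29.5 CPM in control CD44minus. Sox4cKO replicate 2 went the other way from the other 3 animals, with 2.01-fold more in CD44plus. Of the 33 to 101 reads on Tet1 in the CD44minus libraries, 35.9 to 43.9% were at the predicted background, the highest share of the 10 genes in Sox4cKO CD44minus replicate 2 and control CD44minus replicate 2. The log2 fold changes of -0.88 (SE 0.66) in Sox4cKO and -1.09 (SE 0.66) in control did not pass (adjusted p = 0.457 and 0.295 by edgeR). Without Sox4cKO CD44minus replicate 1 the value in Sox4cKO turned to 0.81.

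**Figure D1:**
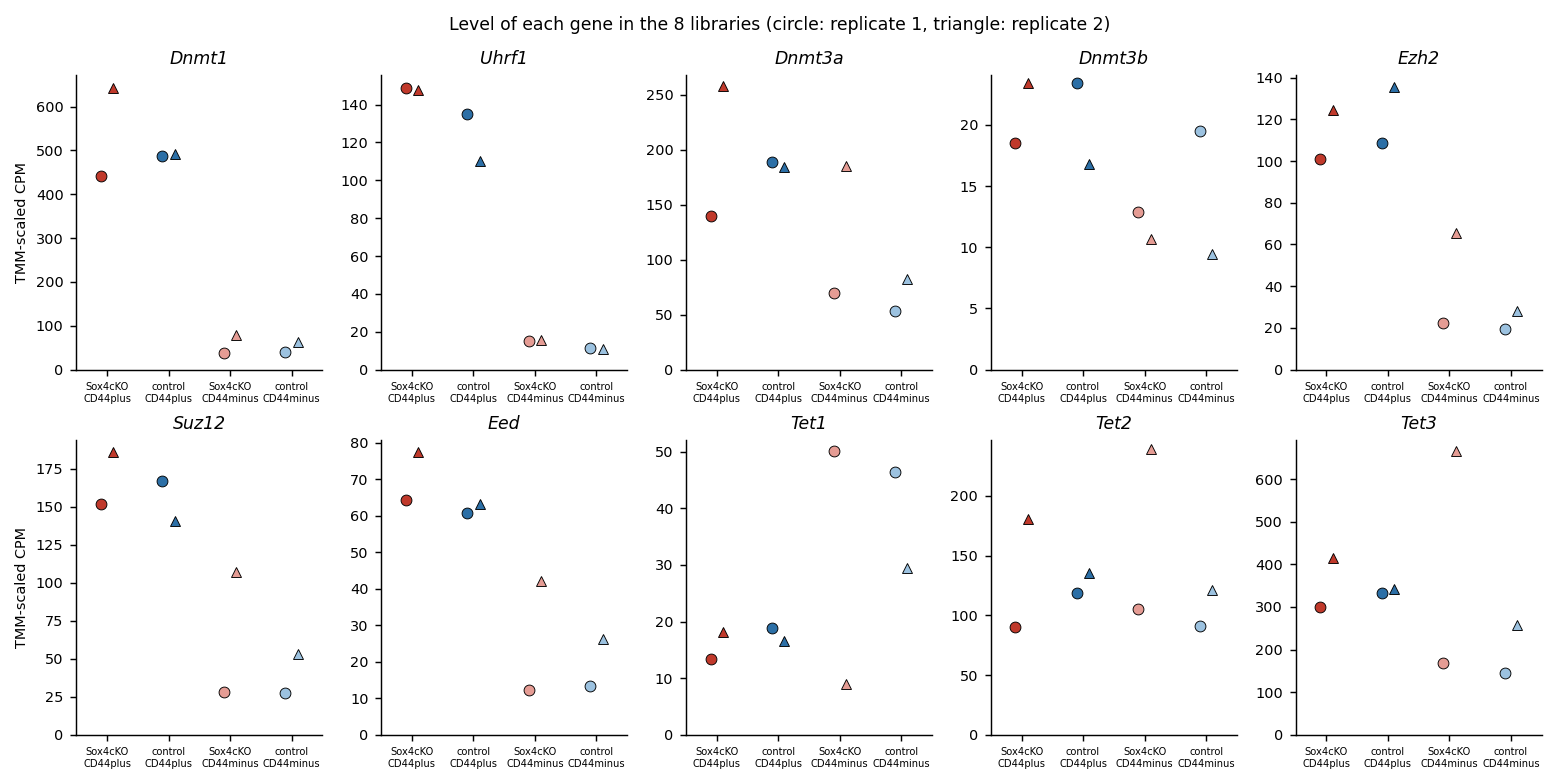
TMM-scaled CPM of each of the 10 genes (linear vertical axes from 0, 1 panel a gene) in the 8 libraries, with groups along the horizontal axis and 1 point a library. Uhrf1 lies between 110.1 and 149 CPM in CD44plus and between 10.6 and 15.8 CPM in CD44minus, whereas Tet2 and Dnmt3b overlap between gates.

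Counted over the 10 genes, 6 lay higher in both Sox4cKO CD44plus than in both Sox4cKO CD44minus libraries (Dnmt1, Dnmt3b, Uhrf1, Ezh2, Suz12 and Eed), as did 21.1% of all genes tested. In control 7 did so (Dnmt1, Dnmt3a, Uhrf1, Ezh2, Suz12, Eed and Tet3), against 38.7% of all genes, and Tet1 lay lower without overlap, as did 41% of all genes. At an unadjusted p under 0.05, 3 were higher in CD44plus in Sox4cKO (Dnmt1, Eed and Uhrf1), against 8.35% of all genes, and none was lower, against 9.33%. In control 5 were higher (Dnmt1, Eed, Ezh2, Suz12 and Uhrf1), against 14.2%, and none was lower, against 8.79%. Fitted values were positive for 7 of the 10 in Sox4cKO and 9 in control, against 39.8% and 47.2% of all genes, and negative for 3 and 1, against 60.2% and 52.8%. The median log2 fold change of the 10 genes was 1.08 in Sox4cKO and 1.54 in control, where the median of all genes was -0.48 and -0.19. The scaling between the gates moved these values: with upper quartile scaling the median of all genes was -0.93 in Sox4cKO and -1.01 in control. Relative to the median of all genes, over TMM, upper quartile and DESeq2 scaling, with the ribosomal RNA gene Rn45s left out and with the predicted background subtracted, Uhrf1 lay 3.53 to 3.75 higher on the log2 scale in Sox4cKO and 3.64 to 3.68 in control, Dnmt1 3.36 to 3.77 and 2.98 to 3.45, and Ezh2 1.53 to 1.99 and 2.05 to 2.55. Relative to the same median Tet1 stayed lower (-0.97 to -0.40 in Sox4cKO and -1.13 to -0.89 in control), while Tet2 changed sign in both genotypes and Tet3 in Sox4cKO.

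Genes of DNA replication and the cell cycle differed between the gates in the same direction. Of 29 such genes, 16 rose in CD44plus in Sox4cKO (25 with the animal block) and 16 in control, and none fell. By edgeR 1.66% of all genes rose in Sox4cKO and 2.01% in control, and the animal block called 807 of 20427 genes higher in Sox4cKO. Mcm4, a subunit of the replicative helicase, rose by 4.58 on the log2 scale in control (SE 0.75), and Ccna2, the S-phase cyclin A, by 4.02 (SE 0.71). The summed level of the 29 genes was 4740 and 5813 CPM in Sox4cKO CD44plus, against 538.3 and 717.9 CPM in Sox4cKO CD44minus, and 5450 and 5498 CPM in control CD44plus, against 492.4 and 520.1 CPM in control CD44minus. A large part of this sum was Mki67, at 1856 to 2676 CPM in the CD44plus libraries and 149.1 to 251.5 CPM in CD44minus. The sum thus weights the 29 genes unequally. Set against this sum in the same library, a quantity added after the levels had been seen, the 10 genes fell into 2 sets. Uhrf1 amounted to 3.14 and 2.54% of the sum in Sox4cKO CD44plus, against 2.76 and 2.2% in Sox4cKO CD44minus, and to 2.48 and 2% in control CD44plus, against 2.33 and 2.04% in control CD44minus. Dnmt1 amounted to 8.95 to 11.1% over the 4 CD44plus libraries, against 7.08 to 12.2% over the 4 CD44minus libraries. For both genes the gates overlapped on this scale.

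The other 8 genes were higher relative to the cell cycle sum in every CD44minus library than in every CD44plus library. The sum itself was lower in CD44minus, so a gene that differed less between the gates moves up on this scale. The share of all genes that did so was not determined, so this count shows nothing particular to these genes. Ezh2 amounted to 1.99 to 2.47% of the sum in CD44plus, against 3.97 to 9.15% in CD44minus, and Suz12 to 2.56 to 3.2%, against 5.24 to 14.9%. Dnmt3a amounted to 2.95 to 4.44% in CD44plus, against 10.8 to 25.8% in CD44minus, and Tet2 to 1.91 to 3.12%, against 18.5 to 33.4%. Predicted background made up 0.0972 to 0.555% of the reads of the 29 genes in CD44plus and 3.25 to 29.5% in CD44minus. With background subtracted from both quantities, the same 8 of 10 genes lay apart by gate, and Uhrf1 amounted to 2 to 3.14% in CD44plus and 1.76 to 2.44% in CD44minus.

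**Figure D2:**
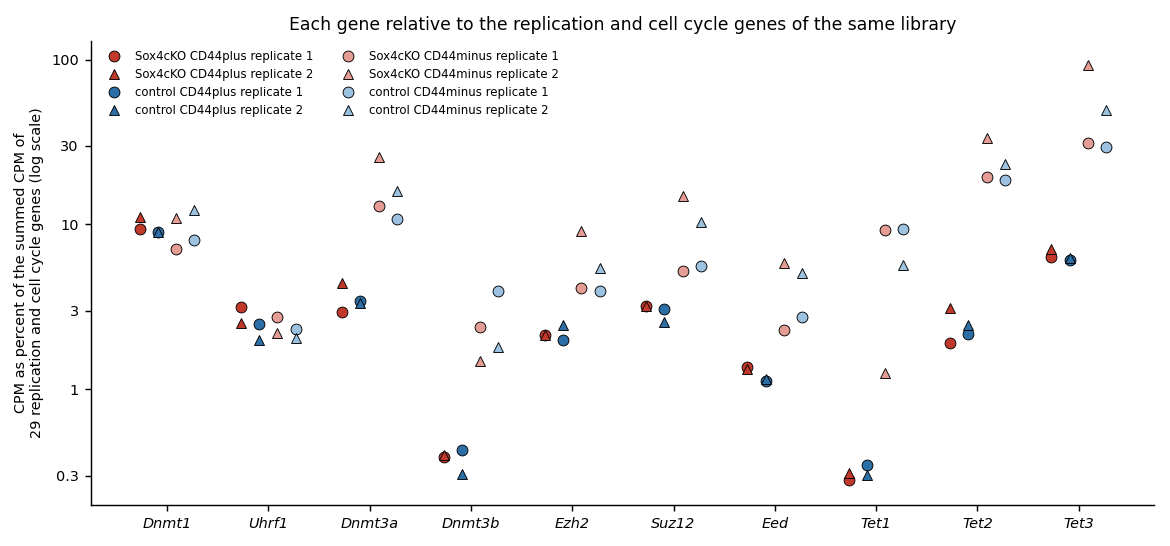
CPM of each gene as a percentage of the summed CPM of 29 replication and cell cycle genes of the same library (log scale), with 1 point a library and Sox4cKO left of control within each gate. Dnmt1 and Uhrf1 overlap between CD44plus and CD44minus, at 7.08 to 12.2% and 2 to 3.14%, and the other 8 genes lie higher in all 4 CD44minus libraries.

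Per kilobase of exon, the scale on which genes can be set beside each other, Dnmt1 was the highest of the 10 in CD44plus, at 86.1 ± 22.6 CPM per kb in Sox4cKO and 77.8 ± 0.438 in control (SD, n = 2 each). Ezh2, Uhrf1, Suz12 and Eed followed, at 34.3 to 40.4 CPM per kb in Sox4cKO and 30.1 to 43.6 in control, and neighbours among these 4 overlapped in their libraries in at least 1 genotype. Tet3 came next at 30.4 ± 6.84 and 28.7 ± 0.627 CPM per kb in Sox4cKO and control CD44plus, then Dnmt3a and Tet2, with Dnmt3b and Tet1 last at 4.84 and 1.1 in Sox4cKO and 4.65 and 1.24 in control. In CD44minus the order differed: Tet3 and Tet2 were the highest, at 35.5 ± 30 and 18.7 ± 10.3 CPM per kb in Sox4cKO and 17.1 ± 6.83 and 11.5 ± 2.35 in control, although the Tet2 libraries overlapped with those of 5 genes below it in Sox4cKO and of 4 in control. The Tet3 libraries overlapped as well, with those of Tet2, Ezh2, Suz12, Eed and Dnmt3a in Sox4cKO and of Tet2 and Eed in control. Within each single CD44minus library, however, Tet3 was the highest of the 10 genes and Tet2 came next. Tet3 and Tet2 stood at 14.3 and 11.4 CPM per kb in Sox4cKO replicate 1 and 56.7 and 26 in replicate 2. In control they stood at 12.3 and 9.88 in replicate 1 and 21.9 and 13.2 in replicate 2, where Eed came close at 12.7. Uhrf1 stood in place 8 of 10 in Sox4cKO CD44minus and in place 9 in control CD44minus.

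Ratios between genes of one library do not depend on the scaling between libraries, and 9 of them were formed. EZH1 is the second catalytic subunit that PRC2 can carry, and UHRF2 is the close relative of UHRF1. The ratio of Ezh2 to Ezh1 per kb was 2.36 and 2.38 in Sox4cKO CD44plus, against 0.896 and 1.04 in Sox4cKO CD44minus, and 2.61 and 3.41 in control CD44plus, against 0.939 and 0.878 in control CD44minus. Ezh2 thus exceeded Ezh1 in every CD44plus library and lay near it in every CD44minus library.

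The ratio of Uhrf1 to Uhrf2 was 2.23 and 1.85 in Sox4cKO CD44plus, against 0.657 and 0.388 in Sox4cKO CD44minus, and 1.83 and 1.77 in control CD44plus, against 0.529 and 0.389 in control CD44minus. That of Dnmt1 to Dnmt3a was 4.97 and 3.92 in Sox4cKO CD44plus, against 0.859 and 0.665 in Sox4cKO CD44minus, and 4.07 and 4.19 in control CD44plus, against 1.17 and 1.21 in control CD44minus. All 3 ratios were higher in CD44plus in 4 of 4 animals, by 2.29- to 3.88-fold, 3.39- to 4.76-fold and 3.47- to 5.89-fold in the order given. The exact two-sided permutation test over 4 animals gave p = 0.125 for each, the smallest it allows, and 0.375 adjusted over the 9 ratios. Less the predicted background, Ezh2 to Ezh1 was 2.38 to 3.44 in CD44plus and 0.869 to 1.04 in CD44minus. Suz12 to Eed, 2 subunits of the same complex, was 1.05 to 1.3 in CD44plus and 0.959 to 1.2 in CD44minus, and the remaining 5 ratios likewise did not go the same way in all 4 animals.

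**Figure D3:**
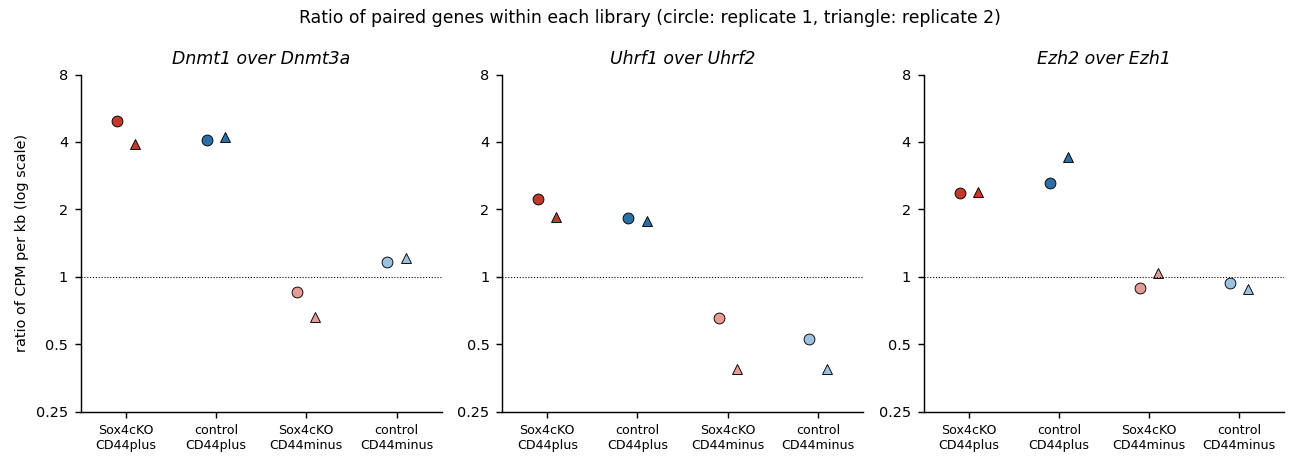
Ratio of CPM per kb between 2 genes of the same library (log scale, dotted line at equal levels), with 1 point a library. The 3 ratios lie at 1.77 or more in all CD44plus libraries and at 1.21 or less in all CD44minus libraries.

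Partners of the methylation machinery differed between the gates as well. Of 14 partners, 4 rose in CD44plus in both genotypes and none fell. Among all genes 1.66% rose and 0.93% fell in Sox4cKO by edgeR, and 2.01% and 0.445% in control. Hells, a chromatin remodeller needed for methylation of repeats, stood at 124 and 120 CPM in Sox4cKO CD44plus, against 8.42 and 10.6 CPM in Sox4cKO CD44minus, and at 123 and 115 CPM in control CD44plus, against 6.06 and 11 CPM in control CD44minus. Its log2 fold change was 3.67 (SE 0.66) in Sox4cKO and 3.78 (SE 0.67) in control. Cdca7, which recruits HELLS to nucleosomes, rose by 3.54 (SE 0.74) in Sox4cKO and 3.98 (SE 0.76) in control, its relative Cdca7l by 2.97 and 3.42, and Lig1, the DNA ligase of replication, by 2.98 and 3.05. The median over the 14 partners was 1.05 in Sox4cKO and 1.79 in control. Dnmt3l, the catalytically inactive cofactor of de novo methylation in germ cells, was read at 0.189 to 2.77 CPM in CD44plus and 0.545 to 15.5 CPM in CD44minus. The CD44minus values rest on 20 and 2 reads in Sox4cKO and 23 and 15 in control. The lowest, 0.545 CPM, came from Sox4cKO replicate 2, the CD44minus library of least background. The part of background in these values was not tested.

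Of 16 genes of demethylation and base repair, 1 rose in Sox4cKO (2 with the animal block) and 2 in control, and none fell. By edgeR 1.66% of all genes rose in Sox4cKO and 2.01% in control. The animal block called 807 of 20427 genes higher in Sox4cKO and 1506 in control. Neil3, a DNA glycosylase, rose by 2.73 (SE 0.64) in Sox4cKO and 2.89 (SE 0.65) in control, and Apex1, the endonuclease that cuts abasic sites, rose by 2.83 (SE 0.60) in control and had a value of 1.91 (SE 0.56, adjusted p = 0.0774 by edgeR) in Sox4cKO. By edgeR none of 10 methyl-CpG readers passed, with 2 higher in Sox4cKO and 4 in control at an unadjusted p under 0.05, whereas the animal block called 3 in control, limma-voom called 3 in control, and DESeq2 called 1 in Sox4cKO and 2 in control. Among all genes, 8.35% were higher and 9.33% lower in Sox4cKO at an unadjusted p under 0.05, and 14.2% and 8.79% in control. Zbtb38 and Zbtb33 had the smallest p in control, with 2.53 (SE 0.73) and 1.92 (SE 0.59). Among 10 other PRC2 subunits none passed by edgeR, although 2 were higher and 1 lower in Sox4cKO and 3 higher in control by an unadjusted p under 0.05. The animal block and limma-voom each called 1 in Sox4cKO and 2 in control, and DESeq2 called 2 in each. The nearest were the histone-binding subunits Rbbp7 at 2.88 (SE 0.81) and Rbbp4 at 2.27 (SE 0.66) in control.

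No gene of 26 PRC1 subunits, the second Polycomb complex, passed by edgeR in either genotype, although 5 in Sox4cKO and 12 in control were higher at an unadjusted p under 0.05. The shares of all genes higher at that p were 8.35% in Sox4cKO and 14.2% in control. The animal block called 2 in control and none in Sox4cKO, limma-voom 1 in control and none in Sox4cKO, and DESeq2 2 in Sox4cKO and 1 in control. In control 25 of the 26 had positive log2 fold changes, with a median of 1.22, and in Sox4cKO 20 did, with a median of 0.74. Bcor and Bmi1 had the smallest p in control, at 2.60 (SE 0.70) and 1.69 (SE 0.57). Of 12 genes that oppose Polycomb (H3 demethylases, the BAP1 deubiquitinase, MLL methyltransferases and SWI/SNF subunits), 0 passed by edgeR, with 1 lower in Sox4cKO and 1 higher in control at an unadjusted p under 0.05 and 1 lower in Sox4cKO by DESeq2 and with the animal block, but 0 by limma-voom. Their median was 0.60 in Sox4cKO and 1.07 in control. At an unadjusted p under 0.05, 9.33% of all genes were lower in Sox4cKO and 14.2% higher in control. Asxl1 stood at 1.49 (SE 0.67) and Bap1 at 1.17 (SE 0.62) in control.

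**Figure D4:**
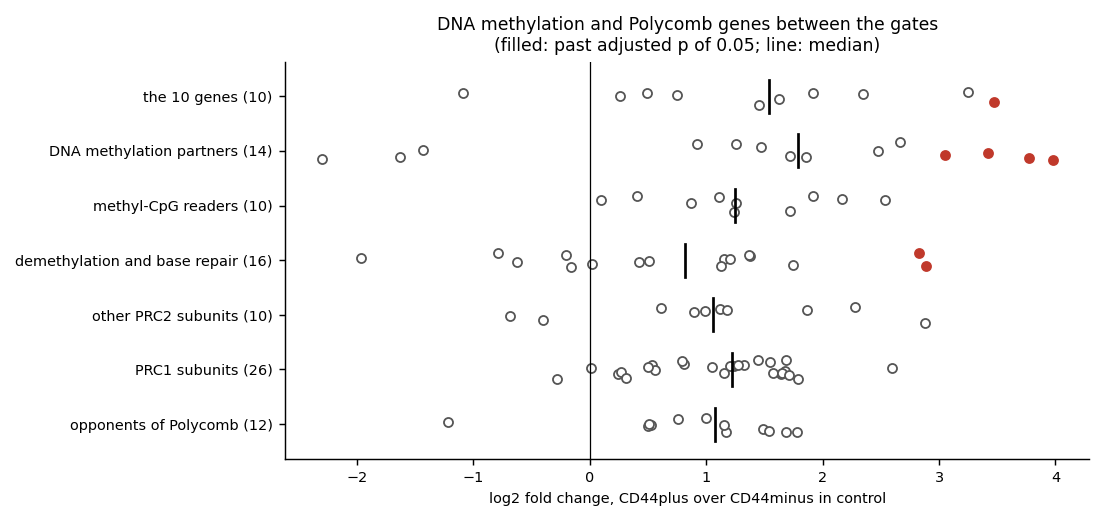
Log2 fold change, CD44plus over CD44minus in control (horizontal axis), for the 10 genes and 6 lists of related genes, with 1 point a gene, filled where the adjusted p was under 0.05, and a line at the median. Filled points are 1 of the 10 genes (Uhrf1), 4 of 14 methylation partners and 2 of 16 genes of demethylation and base repair.

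Genes that these marks are known to keep silent were read at levels that differed widely from gene to gene. Of 33 developmental genes that Polycomb silences in many tissues, 0 passed by edgeR in either genotype. At an unadjusted p under 0.05, 3 were lower in Sox4cKO and 7 in control, against 9.33% and 8.79% of all genes. The animal block called 9 lower in control and none in Sox4cKO, limma-voom 4 lower in control, and DESeq2 2 lower in each genotype. Of all 20427 genes, the block called 2153 lower in control and limma-voom 1230. DESeq2 called 1030 of them lower in Sox4cKO and 1004 in control. All 33 in Sox4cKO and 31 in control had negative log2 fold changes, against 60.2% and 52.8% of all genes, with medians of -1.89 and -2.31, against -0.48 and -0.19 for all genes. Predicted background made up 2.51 to 8.83% of the reads of this list in CD44plus. In CD44minus it made up 29.9 and 2.08% in Sox4cKO libraries 1 and 2, and 27.5 and 12.1% in the control libraries. The summed level in the CD44minus library of least background, Sox4cKO replicate 2, was the highest of the 8, at 1135 CPM, against 525.4 to 688 CPM in the other CD44minus and 227.2 to 327 CPM in the CD44plus libraries. Most of that 1135 CPM lay on Tbx3 (594.7 CPM), Cdkn2b (283.3 CPM) and Gata4 (207.6 CPM), while 7 of the 33 genes had 0 reads there. The sum thus does not describe the list as a class. Cdkn2a, the cell cycle inhibitor locus that PRC2 silences in dividing cells, had 12 and 16 reads in Sox4cKO CD44plus, against 8 and 0 in Sox4cKO CD44minus, and 9 and 2 reads in control CD44plus, against 8 and 5 in control CD44minus. Its neighbour Cdkn2b stood at 39.5 and 21.4 CPM in Sox4cKO CD44plus, against 42.1 and 283 CPM in Sox4cKO CD44minus, and at 21.4 and 13.2 CPM in control CD44plus, against 44.5 and 96.7 CPM in control CD44minus, with a log2 fold change of -2.03 (SE 0.80, adjusted p = 0.16 by edgeR) in control. Of 19 germline genes silenced by DNA methylation that passed the filter, out of 20, none passed by edgeR. At an unadjusted p under 0.05, 1 was lower in control, against 8.79% of all genes, while the animal block and DESeq2 each called 1 lower in control and limma-voom 0. All 19 were negative in both genotypes, against 60.2% of all genes in Sox4cKO and 52.8% in control. Their CD44minus levels split with the background: the whole list of 20 summed to 21.2 CPM in Sox4cKO CD44minus replicate 2, within the 19.9 to 39.8 CPM of the CD44plus libraries, and to 90.4 to 179.8 CPM in the 3 CD44minus libraries of higher background. Sycp1, for example, was read at 0.913 to 2.18 CPM in CD44plus and 0.817 to 17.8 CPM in CD44minus. Predicted background made up 14.3 to 33.3% of the reads of the germline list in CD44plus and 43.8 to 55.2% in CD44minus, and its part in these values was not tested.

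Markers of other cells moved with the gates as well. Of 19 lymphocyte and myeloid markers, 8 rose in CD44plus in Sox4cKO and 5 in control, and their summed level was 3037 and 7077 CPM in Sox4cKO CD44plus, against 338.7 and 1430 CPM in Sox4cKO CD44minus, and 2581 and 4186 CPM in control CD44plus, against 302.4 and 558.6 CPM in control CD44minus. Of 9 mast cell markers, 5 rose in Sox4cKO and 4 in control, with summed levels of 1919 to 17810 CPM in CD44plus and 56.2 to 88.6 CPM in CD44minus. Of 12 enteroendocrine markers, 2 rose in Sox4cKO and 7 in control, of 12 stroma and endothelium markers 2 rose in Sox4cKO and 1 in control, and of 10 crypt markers 4 and 5 rose. Most of the stroma and endothelium list went the other way: 10 of its 12 values were negative in each genotype, with medians of -1.91 in Sox4cKO and -2.15 in control. Predicted background made up 27 to 38% of the reads of that list in CD44minus. The animal block moved the lymphocyte and myeloid count to 12 in Sox4cKO and 15 in control, the mast cell count to 7 in control, and the stroma and endothelium count in control to 2 higher and 4 lower. Of 20 enterocyte markers, 9 fell in Sox4cKO and 5 in control (9 with the animal block), and none of 8 general epithelial markers passed by edgeR (1 lower in each genotype and 1 higher in control at an unadjusted p under 0.05, 2 lower in each and 1 higher in control by DESeq2, and 1 lower in each by limma-voom). At an unadjusted p under 0.05, 9.33% of all genes were lower in Sox4cKO, and in control 8.79% were lower and 14.2% higher. By the adjusted p of edgeR, 1.66% of all genes were higher and 0.93% lower in Sox4cKO, and 2.01% and 0.445% in control. The animal block called 807 of 20427 genes higher and 905 lower in Sox4cKO, and 1506 and 2153 in control. At most 1 marker of the lymphocyte and the mast cell list was at 0 in any library, among them Igj in Sox4cKO CD44minus replicate 2. The part of cell mixture in the levels of the 10 genes was not tested.

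The genes whose profile over the 8 libraries was most like that of each gene were found by the root mean square difference of log2(CPM + 1) after centring. Nearest to Uhrf1 were Smc2, a condensin subunit, Mcm5, a helicase subunit, and Kif11, a mitotic kinesin, at 0.168, 0.198 and 0.224. Dnmt1 had Tmpo (0.103), which encodes a nuclear lamina protein, Lig1 (0.18) and the histone gene Hist1h2bf (0.206) nearest. For Ezh2 they were Smarca5 (0.0928), Rbm17 and Tspo, for Suz12 Mcmbp (0.0727), M6pr and Iqgap1, and for Eed Bop1 (0.0751), Ubqln2 and Lrch1. Dnmt3a lay nearest Riok1 (0.0752), Gon4l and Mdm4, Dnmt3b nearest Sntb2 (0.132), C87436 and Wdr47, and Tet1 nearest Neb (0.0721), 1500016L03Rik and Pard6g. Tet2 lay nearest Hook3 (0.142), Gltscr1 and Per2, and Tet3 nearest Wwp2 (0.0822), Capn1 and Cdk12. For Uhrf1 and Dnmt1 the nearest genes thus included genes of replication or mitosis, and Mcmbp, nearest to Suz12, encodes the MCM-binding protein. These are descriptions over the 8 libraries of 4 groups.

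The promoters of all 10 genes were searched for the E2F site, the element bound by the E2F factors that drive replication genes. The search used the words TTTCCCGC, TTTCGCGC, TTTGCCGC and TTTGGCGC on both strands, in windows from 250 bases before to 50 bases after each RefSeq start. A word was found for 4 of the 10 genes (Dnmt1, Uhrf1, Ezh2 and Suz12), against 2.6% of 27025 genes with a window and 9 of 23 replication and cell cycle genes. Dnmt1, Dnmt3a and Uhrf1 have several windows each, and over all 32851 windows the share was 2.26%. The 4 windows that hold a word are shown from 230 bases before to 30 bases after the start (RefSeq, GRCm38.p6), 5′ to 3′ on the gene's strand, with the word in capitals; in Dnmt1 it is the reverse complement. They lie at chr9:20952594-20952853 (Dnmt1, minus strand), chr17:56304083-56304342 (Uhrf1, plus strand), chr6:47595001-47595260 (Ezh2, minus strand) and chr11:79992876-79993135 (Suz12, plus strand).
Dnmt1: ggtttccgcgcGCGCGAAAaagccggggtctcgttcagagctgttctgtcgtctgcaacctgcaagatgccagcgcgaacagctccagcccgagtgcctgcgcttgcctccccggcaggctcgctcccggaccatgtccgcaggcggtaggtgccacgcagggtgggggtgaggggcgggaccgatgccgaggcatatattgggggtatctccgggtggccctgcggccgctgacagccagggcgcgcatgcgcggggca
Uhrf1: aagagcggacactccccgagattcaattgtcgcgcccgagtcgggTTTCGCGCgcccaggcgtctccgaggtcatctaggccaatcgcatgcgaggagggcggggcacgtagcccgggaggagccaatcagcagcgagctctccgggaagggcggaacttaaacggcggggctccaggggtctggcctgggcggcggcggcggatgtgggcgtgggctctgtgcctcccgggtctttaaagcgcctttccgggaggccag
Ezh2: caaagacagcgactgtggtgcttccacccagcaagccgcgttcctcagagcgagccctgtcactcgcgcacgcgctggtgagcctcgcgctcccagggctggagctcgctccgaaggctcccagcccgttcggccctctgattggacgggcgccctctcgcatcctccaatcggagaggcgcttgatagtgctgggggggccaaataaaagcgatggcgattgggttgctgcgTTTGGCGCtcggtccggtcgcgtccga
Suz12: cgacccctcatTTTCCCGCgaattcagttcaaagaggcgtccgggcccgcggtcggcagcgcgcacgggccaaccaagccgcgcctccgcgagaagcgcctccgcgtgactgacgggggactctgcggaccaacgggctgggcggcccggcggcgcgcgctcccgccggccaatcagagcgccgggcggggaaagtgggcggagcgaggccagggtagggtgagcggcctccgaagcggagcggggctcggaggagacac
Relative to the start the words begin at -219 in Dnmt1 and Suz12, at -185 in Uhrf1 and at 4 in Ezh2, and another word in Dnmt1 begins at 34, past the bases shown. The CCAAT box, searched likewise, was found for 6 of the 10 genes and 41.1% of all. The core of the cell cycle homology region, TTTGAA, was found for 4 of the 10 genes and 20.2% of all. No E2F word shown overlaps another E2F word or either of these elements. The counts are per gene, so which start was used in these cells is not given, and a match is a description of the letters only.

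Sox4cKO and control were then compared within each gate, which asks whether the loss of Sox4 goes with a change in these enzymes. None of the 10 genes passed in CD44plus, where the edgeR fit called 0% of all genes higher and 0% lower. At an unadjusted p under 0.05 the fit had 0.181% of genes higher and 0.445% lower in Sox4cKO, and none of the 10 genes was among them; DESeq2 and limma-voom also called 0 genes. The log2 fold changes in CD44plus ran from -0.17 (Tet1, SE 0.65) to 0.27 (Uhrf1, SE 0.59), 8 of 10 were positive against 49.9% of all genes, and their median was 0.09. None of the markers of other cells passed by edgeR, but whole lists shared a sign: in CD44plus all 12 enteroendocrine markers had negative values (median -1.92), all 19 lymphocyte and myeloid markers positive ones (median 0.70) and all 9 mast cell markers positive ones (median 2.14), against a median near 0 for all genes. With an unadjusted p under 0.05, 9 of the enteroendocrine markers were lower, 3 of the mast cell markers higher and 0 of the lymphocyte and myeloid markers either, and DESeq2 and limma-voom called 0 of the 3 lists. Their part in the values of the 10 genes was not tested. The approximate 95% intervals were wide: -0.88 to 1.43 for Uhrf1, -1.44 to 1.74 for Dnmt1, -1.36 to 1.55 for Dnmt3a and -1.39 to 1.16 for Ezh2. These intervals come from the fit of all 8 libraries, which pooled the spread of both gates. The biological coefficient of variation (replicate spread beyond counting) was 0.616 over all 8, 0.335 in CD44plus alone and 0.76 in CD44minus alone. A threshold missed with intervals this wide does not show equal levels.

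Uhrf1 and Eed lay higher in both Sox4cKO than in both control CD44plus libraries, as did 14.2% of all genes, and none of the 10 lay lower without overlap, as did 16.4% of all genes. The Uhrf1 values behind this, 149 and 148 CPM in Sox4cKO and 135 and 110.1 CPM in control, differ by 1.21-fold in the fit. Sox4cKO CD44plus replicate 2 was the highest of the 4 libraries for Dnmt1, Dnmt3a, Suz12, Eed, Tet2 and Tet3, and it also had the highest summed mast cell markers, 17810 CPM, against 3700 CPM in Sox4cKO replicate 1 and 1919 and 3166 CPM in control CD44plus. Without it, the fitted values of Dnmt1, Dnmt3a, Dnmt3b, Suz12, Tet2 and Tet3 turned negative.

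In CD44minus none of the 10 genes passed either, with 0% of all genes called in each direction. The log2 fold changes ran from -0.38 (Tet1, SE 0.66) to 1.05 (Tet3, SE 0.89), with 8 of 10 positive, against 57.5% of all genes, and 2 negative, against 42.5%. At an unadjusted p under 0.05 none of the 10 was among the 0.534% of genes higher or the 0.0343% lower, and DESeq2 and limma-voom called 0 genes. Only Uhrf1 lay without overlap, at 14.9 and 15.8 CPM in Sox4cKO and 11.5 and 10.6 CPM in control, on 17 to 58 reads a library, whose exact Poisson 95% intervals overlapped (10 to 21.2 CPM in Sox4cKO replicate 1 and 6.67 to 18.3 CPM in control replicate 1, covering counting error only). The share of all genes without overlap was 6.52% higher and 5.94% lower. The values rest on Sox4cKO CD44minus replicate 2: with Sox4cKO CD44minus replicate 1 left out, so that this single library stood for its group, 7613 genes were called, and among the 10 genes Dnmt3a, Ezh2, Suz12 and Tet3 came out higher and Tet1 lower (log2 fold changes 1.42, 1.42, 1.36, 1.71 and -2.08). With replicate 2 left out in its place, 0 genes were called and the values for Ezh2, Suz12 and Tet3 were -0.13, -0.55 and -0.27.

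**Figure D5:**
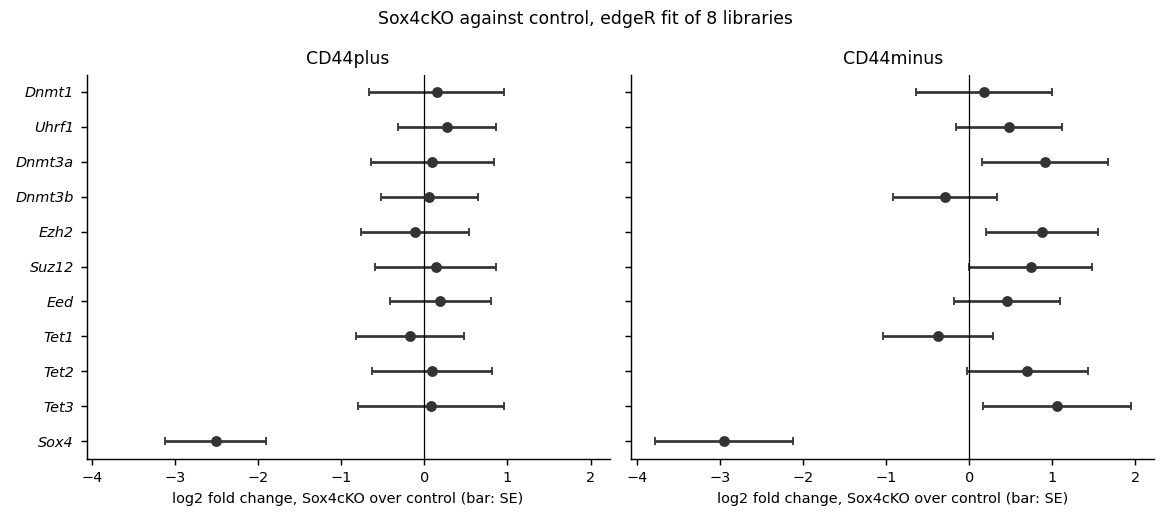
Log2 fold change, Sox4cKO over control, with its SE (horizontal axes), for Sox4 and the 10 genes in CD44plus and in CD44minus, from the edgeR fit of all 8 libraries. Sox4 lies at -2.51 and -2.95, and the SE bars of all 10 genes reach 0 in CD44plus and those of 7 do so in CD44minus.

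The difference of the genotype effect between the gates was tested in the same fit. It ran from -0.99 (Ezh2, SE 0.93) to 0.35 (Dnmt3b, SE 0.86) over the 10 genes, and 0 of them and 0% of all genes passed. At an unadjusted p under 0.05, 0.093% of genes were higher and 0.152% lower, none of them among the 10, and DESeq2 and limma-voom called 0 genes. Its sign was positive for 2 of the 10 (Dnmt3b and Tet1), against 34.9% of all genes, and negative for 8, against 65.1%. Within the 6 lists of related genes, none passed in either genotype comparison. The gene of each list with the smallest p in CD44plus was Dnmt3l (-1.40, SE 1.36), Zbtb33 (-0.45, SE 0.55), Cxxc4 (-1.47, SE 0.87), Lcor (-0.22, SE 0.59), Auts2 (-0.65, SE 0.66) and Asxl3 (-1.31, SE 0.72). Cxxc4, which encodes a CXXC protein that binds TET2, stood at 4.63 and 2.18 CPM in Sox4cKO CD44plus, against 10 and 8.77 CPM in control CD44plus. The 29 replication genes had a median log2 fold change of 0.09 in CD44plus and 0.12 in CD44minus.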

How the data were processed

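Each deposited table gives 1 library's raw counts of reads for every gene symbol, followed by the summary lines of HTSeq, per the values in the files. The tools named are HTSeq 0.6.1p1, STAR, Trimmomatic 0.36 and bcl2fastq 2.17.4, with the mm10 build, per the submitters' processing notes. Libraries were made with a strand-marking total RNA kit for picogram input, per the labels' protocols, and whether HTSeq counted by strand is not given in the sources used here. HTSeq's summary lines were left out of library sizes, and 64.6 to 96.6% of uniquely placed reads were counted to no gene.

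The tests ran in R 4.3.3 and used edgeR 4.0.16 (quasi-likelihood test, filterByExpr with a minimum count of 10, TMM scaling), in 1 fit of the 4 groups over 8 libraries, with Benjamini-Hochberg adjustment over 20427 genes and a threshold of 0.05. Genotypes were compared within either gate, gates within either genotype, and the change of the genotype effect from gate to gate was tested as an interaction. Each genotype comparison shares its libraries with a gate comparison. CPM values carry the TMM factors, which ran from 0.797 to 0.914 in CD44plus and from 0.527 to 1.72 in CD44minus. A count of 0 allows up to 3 counts, or 0.227 to 3.39 CPM before scaling. No molecular identifiers are stated, so intervals and this limit reflect only the error of counting reads. Exon lengths came from GENCODE (GRCm38), merged over transcripts. Background was the reads on 1433 olfactory and vomeronasal receptor genes per kb of their coding sequence, multiplied by a gene's exon length.

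Replicates are biological replicates, per the series' design text, and differed by 8.41 to 64.7 times the Poisson variance. The names of the deposited tables carry 1 number shared by both gates, read here as the animal, so replicate numbers pair the gates within a genotype, and replicate differences correlated across genes between gates at 0.103 in control and 0.526 in Sox4cKO. Between genotypes only the number is shared, and there the correlations were 0.275 in CD44plus and 0.6 in CD44minus. The correlations thus do not single out the animal, and the pairing rests on the table names. Alternatives were DESeq2 1.42.0, limma 3.58.1 (voom with animal as a random block), upper quartile scaling, no filter, a replicate block (a fixed term for the animal in the gate comparisons, called the animal block, and for the shared number alone in the genotype comparisons), only the 4 libraries compared, subtracted background, and each library left out. Leaving out both CD44minus libraries of highest background, and leaving out Rn45s, were added after seeing the data. On simulated counts the fit recovered 4% of 4-fold and 92% of 16-fold changes for Sox4cKO against control in CD44plus, and 10% and 93% for the gates in control.

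The 10 genes and all lists were chosen with earlier results of these data known. All 10 genes were named throughout; from each list up to 4 genes past the threshold with the smallest p in the control gate comparison were eligible to be named, or 2 as values where none passed, and from each list of related genes the smallest p between genotypes in CD44plus. The 3 nearest genes were taken by profile. Dnmt3l, Cdkn2a and Igj were named in the gate comparison after their values were seen. The 9 ratios (with Ezh1 and Uhrf2), the shares of the cell cycle sum and the promoter search were added to the planned tests while the data were being analysed. Of the list genes, 3 were not found in the tables under an unambiguous symbol and were not used here.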

Additional observations from a re-analysis of the deposited data

How the results depend on the processing

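The Sox4cKO CD44plus against control CD44plus comparison called 0 genes in the fit of all libraries, 17 with only its 4 libraries, 10 without both CD44minus libraries of highest background, 1 with the replicate block and 0 to 24 as each library was left out. None of the 10 genes was among them. The Sox4cKO CD44minus against control CD44minus comparison called 4766 genes and 4 of the 10 without both high-background libraries, and 0 to 7613 genes and 0 to 5 of the 10 as each library was left out. The difference between the gates called 0 to 254 genes as each library was left out.

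In Sox4cKO the gates differed in 529 genes and 1 of the 10. The counts were 1907 and 5 with background subtracted, 4681 and 3 without both high-background libraries, 1720 and 2 by DESeq2, 1105 and 2 by limma-voom, 884 and 2 without a filter, 0 and 0 with only the 4 libraries (adjusted p of Uhrf1 0.0563), 1712 and 2 with the replicate block, 1018 and 2 without Rn45s, 985 and 2 with upper quartile scaling, and 11 to 8440 and 0 to 7 as each library was left out. In control they differed in 502 genes and 1 of the 10. The counts there were 2041 and 4, 4802 and 6, 2072 and 4, 2176 and 3, 994 and 3, 9877 and 7, 3659 and 3, 1065 and 3 and 884 and 3 under the same settings in the same order, and 0 to 7362 and 0 to 7 as each library was left out. With upper quartile scaling 409 genes were higher and 576 lower in Sox4cKO and 380 and 504 in control, against 339 and 190, and 411 and 91, with TMM. With DESeq2 the splits were 690 and 1030 in Sox4cKO and 1068 and 1004 in control. The lone library of a group is assumed to vary like the others, and the causes of these shifts were not tested.

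Dnmt1, Uhrf1, Ezh2, Suz12, Eed and Dnmt3a kept a positive sign between the gates under every setting run, in both genotypes. No value whose sign turned had an adjusted p under 0.05. In CD44plus between genotypes, Dnmt3a was -0.019 with the replicate block and -0.0013 with upper quartile scaling, Dnmt3b -0.019 with upper quartile scaling, and Tet2 -0.029 by limma-voom, -0.0046 with the block and -0.0056 with upper quartile scaling. In CD44minus between genotypes, Dnmt1 was -0.32 with background subtracted, -0.22 with only the 4 libraries, -0.11 without Rn45s and -0.33 with upper quartile scaling. Eed was -0.16, -0.0086 and -0.15 under background subtraction, only the 4 libraries and upper quartile scaling, and Dnmt3b 0.15 without both high-background libraries. Between the gates in Sox4cKO, Tet1 was 0.80 without those libraries, and Tet3 0.015 with background subtracted, 0.15 by limma-voom, 0.071 with the block and 0.029 without Rn45s. Between the gates in control, Dnmt3b was -0.37 and Tet3 -0.050 with upper quartile scaling, and Tet2 -0.10 with background subtracted, -0.064 by DESeq2 and -0.55 with upper quartile scaling.

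As each library was left out, values between genotypes in CD44plus ran from -0.15 to 0.28 for Dnmt1, -0.41 to 0.36 for Dnmt3a, -0.16 to 0.32 for Dnmt3b, -0.27 to 0.056 for Ezh2, -0.022 to 0.26 for Suz12, -0.49 to 0.40 for Tet2 and -0.17 to 0.19 for Tet3. In CD44minus they ran from -0.45 to 0.58 for Dnmt1, -0.75 to 0.31 for Dnmt3b, -0.13 to 1.42 for Ezh2, -0.55 to 1.36 for Suz12, -0.73 to 1.02 for Eed, -2.08 to 0.41 for Tet1, -0.027 to 1.15 for Tet2 and -0.27 to 1.71 for Tet3. Between the gates in Sox4cKO they ran from -1.65 to 0.81 for Tet1, -0.92 to 0.38 for Tet2 and -0.90 to 1.09 for Tet3. Depth limits the CD44minus values of single genes, with 17 to 58 reads on Uhrf1.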
